A study of Homo sapiens with 8 samples.

Results

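The genes examined here encode 10 basement membrane proteins: the collagen IV chains COL4A1 and COL4A2, the laminin chains LAMA5, LAMB1, LAMB2 and LAMC1, the heparan sulfate proteoglycans HSPG2 (perlecan) and AGRN (agrin), the linker NID1 (nidogen-1) and the netrin NTN4. They were chosen by name, with earlier results of these data known. They are 10 of the 54174 gene symbols in the deposited table, and all 10 had a value in every library. All 10 also passed the filter for testing (a mean log2 value of at least 1), which 9016 genes did.

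A basement membrane is a thin sheet of extracellular matrix laid down next to cells. Laminins, trimers of an alpha, a beta and a gamma chain, polymerize on the cell surface, and collagen IV forms a second network of covalently joined trimers. Nidogen-1 bridges the gamma-1 laminin chain to collagen IV, perlecan and agrin add heparan sulfate and bind growth factors and dystroglycan, and netrin-4 binds the gamma-1 chain and can take apart laminin networks. Osteosarcoma is a tumour of mesenchymal cells of the bone-forming lineage, which secrete matrix of their own.

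RNA was sequenced from 143B, an established human osteosarcoma line that derives from HOS cells. In 4 control libraries the cells had received a vector plasmid and in 4 knockout libraries a plasmid labelled for NELL1 knockout (genotype NELL1 knockout), in both cases 48 h before collection and by transient transfection. The design text calls the 4 libraries of a group biological replicates. The labels give no clone, no selection and no share of transfected cells, and do not say how the plasmid acts on the gene. In such bulk RNA, fewer cells with a transcript and less of it per cell cannot be told apart. The series title places the comparison in the matrisome, the genes for the extracellular matrix and its associated proteins.

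COL4A1 and COL4A2 are a divergent pair on chromosome 13 whose RefSeq start sites have 126 bases between them, so the promoters at these starts share that stretch. That stretch is shown first because the pair moved together in every library, and it is followed by the 126 bases before the start of HSPG2 and LAMC1, which followed the same pattern, and of NTN4, which did not. All are from RefSeq on GRCh38.p14, 5′ to 3′ towards the named gene (towards COL4A2 for the shared stretch), with GC boxes (GGGCGG) and CCAAT boxes (CCAAT) in capitals, searched on both strands, neighbouring matches being allowed to overlap. The shared stretch is chr13:110307158-110307283 (plus strand), that of HSPG2 chr1:21937311-21937436 (minus strand), that of LAMC1 chr1:183023294-183023419 (plus strand) and that of NTN4, at the outer of its 2 starts, chr12:95791156-95791281 (minus strand).
COL4A1/COL4A2: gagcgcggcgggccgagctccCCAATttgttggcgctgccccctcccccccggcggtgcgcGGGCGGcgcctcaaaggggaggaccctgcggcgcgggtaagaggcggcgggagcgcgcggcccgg
HSPG2: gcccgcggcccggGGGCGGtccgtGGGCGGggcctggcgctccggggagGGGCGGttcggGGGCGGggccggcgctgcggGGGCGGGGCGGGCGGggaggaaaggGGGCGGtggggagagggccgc
LAMC1: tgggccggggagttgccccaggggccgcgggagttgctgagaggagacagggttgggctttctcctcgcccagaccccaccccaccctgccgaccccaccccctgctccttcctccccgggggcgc
NTN4: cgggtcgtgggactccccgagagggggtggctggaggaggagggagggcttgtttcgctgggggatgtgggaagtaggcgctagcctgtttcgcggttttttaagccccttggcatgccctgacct
The shared collagen stretch held 1 GC box and 1 CCAAT box, the HSPG2 stretch 8 GC boxes, and the LAMC1 and outer NTN4 stretches neither. The 126 bases before the inner NTN4 start (chr12:95790765-95790890, minus strand) held 3 GC boxes. Of 35116 RefSeq promoter windows, 34.6% held a GC box in the 126 bases before the start, 21.1% a CCAAT box and 7.4% both. The letters TATAAA were in none of the 4 stretches and in 5.9% of all. These matches describe the letters, and binding to them was not examined. A promoter window was found for 9 of the 10 genes (not AGRN). GENCODE 29 also has transcripts of COL4A1 and COL4A2 whose first exons reach into the shared stretch. Its span of COL4A2 begins at 110305812, inside COL4A1 and outside this stretch.

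On GRCh38, the build in the submitters' processing notes, GENCODE 29 places the protein-coding gene COL4A1 at chr13:110148963-110307233 (minus strand) and COL4A2 at chr13:110305812-110513209 (plus strand). LAMA5 lies at chr20:62307955-62367312, LAMB1 at chr7:107923799-108003255 and LAMB2 at chr3:49121114-49133118, all on the minus strand. LAMC1 lies at chr1:183023460-183145592 (plus strand), HSPG2 at chr1:21822245-21937297 (minus strand), AGRN at chr1:1020123-1056118 (plus strand) and NID1 at chr1:235975830-236065162 (minus strand). NTN4 lies at chr12:95657807-95791152 (minus strand). Exons of LAMA5 overlap ADRM1 and exons of LAMB1 overlap DLD on the opposite strand. The kit keeps strand, but the counting setting is not given in the sources used here, so some reads of these pairs may be shared. Neither partner passed the test (DLD 0.16 higher, limma adjusted p = 0.268, and ADRM1 0.02 higher, limma adjusted p = 0.844).

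NELL1 itself had low values in both groups: -6.97, -6.97, -4.53 and -5.00 in control libraries 1 to 4 and -4.82, -5.87 and -6.96 in knockout libraries 1, 2 and 4, with a blank cell in knockout library 3, so its transcript did not check the labels. Over all tested genes, knockout libraries 1 and 2 were close (SD of their difference 0.12) and so were 3 and 4 (0.13). The SD between these pairs was 0.46 to 0.50, above any knockout to control difference (0.36 to 0.45). Between control libraries it was 0.10 to 0.29, so the controls were not all equally close either. Each comparison is therefore given over all libraries and also for each set of replicates (1 and 2, 3 and 4) apart. The labels name no reason for these sets. Of 9 osteoblast lineage markers 5 had a value in all libraries, among them RUNX2 (0.05 to 0.43) and SPP1 (3.08 to 4.70), while SP7 and IBSP were blank throughout. Of 5 epithelial markers 3 had a value in all libraries, and the sum of the list on the linear scale was 535 to 578 in the controls and 611 to 702 in the knockouts, nearly all of it from KRT8 and KRT18. The smooth muscle and pericyte list summed to 0.62 to 0.76 in the controls and 0.85 to 1.00 in the knockouts, and the endothelial list to at most 0.65 in any library. Of the blood markers PTPRC and CD3E were blank throughout and CD68 was 5.54 to 5.90. The part of these markers in the results below was not tested.

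Of the 10 genes, 9 had lower transcript levels in knockout libraries 1 and 2 than in control libraries 1 and 2, with falls from 0.21 (NID1) to 1.97 (HSPG2) on the log2 scale, and for each of these 9 the change was different in replicates 3 and 4 (limma interaction test, below). The exception in direction was NTN4, which was higher in all 4 knockout libraries. Over all 8 libraries only LAMB2, which fell, and NTN4, which rose, passed the test. These counts and their background are given after the single genes.

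**Figure D1:**
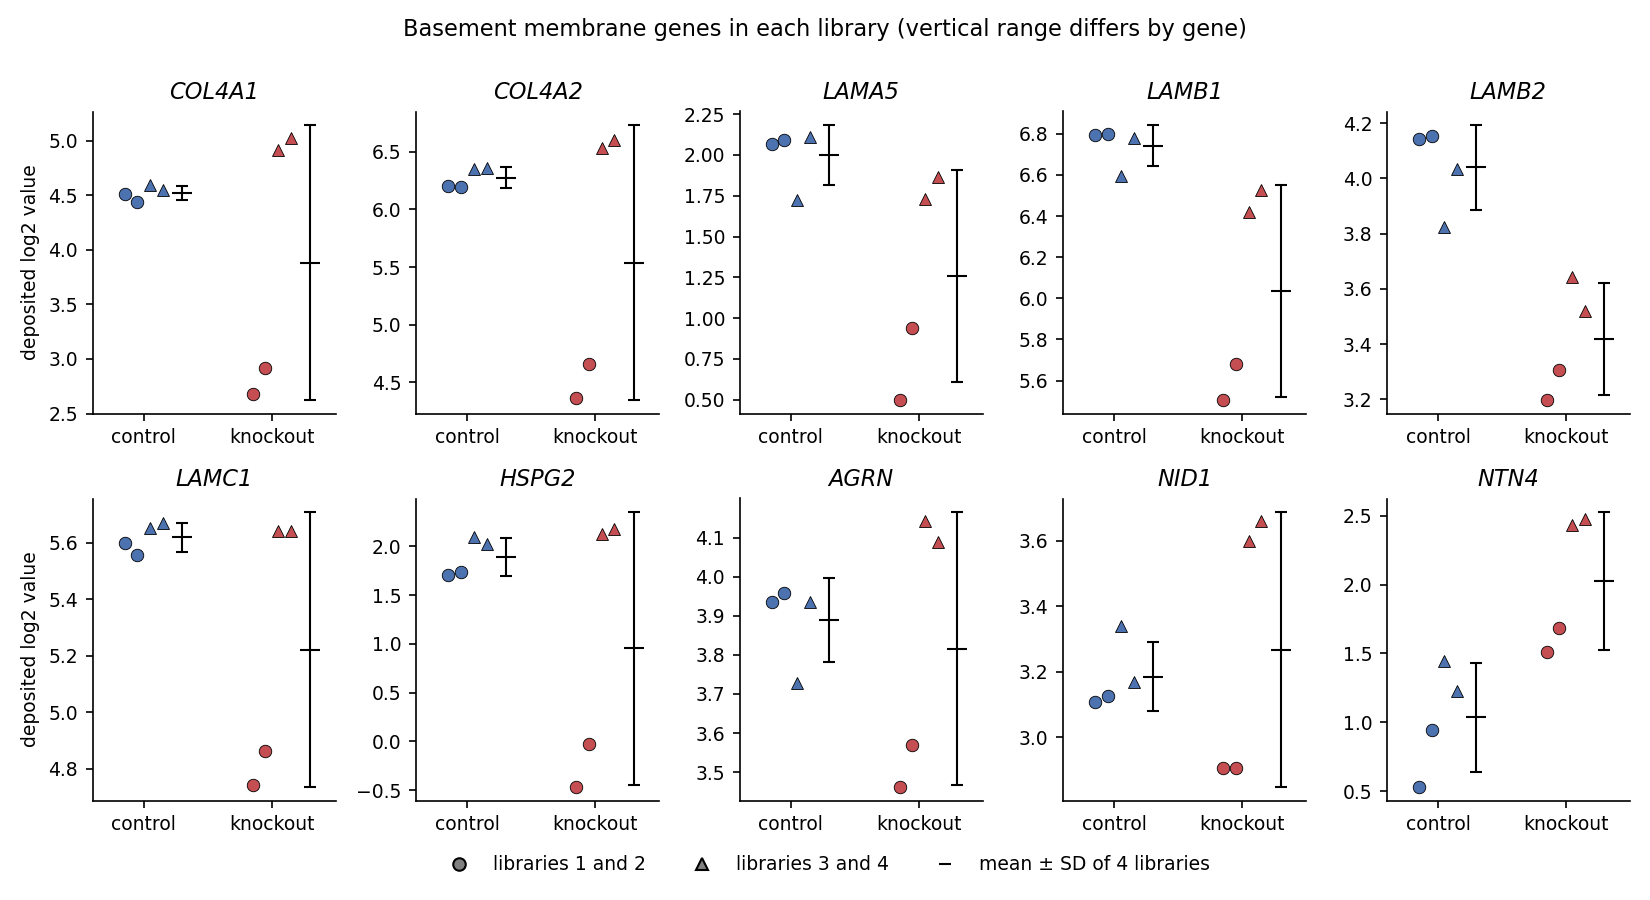
Deposited log2 value of each gene (vertical axis) in the 4 control (blue) and 4 knockout (red) libraries, circles for libraries 1 and 2 and triangles for 3 and 4, with the mean and SD of each group. For COL4A1, COL4A2, LAMC1, HSPG2, AGRN and NID1 the knockout circles lie below every control and the knockout triangles lie among or above the controls, and for NTN4 all red points lie above all blue points.

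COL4A1 and COL4A2 encode the alpha-1 and alpha-2 chains of the collagen IV trimer found in nearly all basement membranes. COL4A1 was 4.51, 4.44, 4.59 and 4.55 in control libraries 1 to 4 and 2.67, 2.92, 4.91 and 5.03 in knockout libraries 1 to 4. Knockout libraries 1 and 2 were thus far below all controls and knockout libraries 3 and 4 above all of them. The control mean was 4.52 ± 0.07 and the knockout mean 3.88 ± 1.26 (SD, n = 4 each), and the difference of -0.64 ± 0.53 (SE) did not pass (limma adjusted p = 0.457). Within replicates 1 and 2 COL4A1 fell by 1.68 (limma adjusted p = 6.24e-05), and within replicates 3 and 4 it rose by 0.40 (limma adjusted p = 0.0109).

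COL4A2 was 6.20, 6.20, 6.35 and 6.36 in control libraries 1 to 4 and 4.36, 4.66, 6.53 and 6.60 in knockout libraries 1 to 4. As for COL4A1, knockout libraries 1 and 2 were lowest and knockout libraries 3 and 4 highest. The difference over all libraries was -0.74 ± 0.50 (SE; limma adjusted p = 0.364). Within replicates 1 and 2 the gene fell by 1.69 (limma adjusted p = 8.54e-05), and within replicates 3 and 4 the difference of 0.21 did not pass (limma adjusted p = 0.0862). On the linear scale, if the deposited logarithm is to base 2, the levels in knockout libraries 1 and 2 were 0.313 (COL4A1) and 0.31 (COL4A2) of those in control libraries 1 and 2. The change in replicates 3 and 4 exceeded that in replicates 1 and 2 by 2.07 ± 0.12 for COL4A1 and by 1.90 ± 0.13 for COL4A2 (SE; limma interaction test, adjusted p = 3.14e-05 and 4.06e-05).

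Of the laminin chains, LAMC1 encodes the gamma-1 chain, the partner of most alpha and beta chains. LAMC1 was 5.60, 5.56, 5.65 and 5.67 in control libraries 1 to 4 and 4.74, 4.86, 5.64 and 5.64 in knockout libraries 1 to 4. Knockout libraries 1 and 2 were below all controls and knockout libraries 3 and 4 were inside the control range. It fell by 0.77 within replicates 1 and 2 (limma adjusted p = 1.62e-04), the difference within replicates 3 and 4 was -0.02 (limma adjusted p = 0.871), and over all libraries it was -0.40 ± 0.21 (SE; limma adjusted p = 0.246).

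LAMB1, which encodes the beta-1 chain, was 6.80, 6.80, 6.59 and 6.78 in the controls and 5.51, 5.68, 6.42 and 6.53 in the knockouts. Here the groups did not overlap: all 4 knockout libraries were below all 4 controls, libraries 3 and 4 only by a small margin. The difference was -0.71 ± 0.22 (SE) and missed the threshold (limma adjusted p = 0.0715). It fell by 1.21 within replicates 1 and 2 (limma adjusted p = 7.97e-05), and the difference was -0.21 within replicates 3 and 4 (limma adjusted p = 0.133). With a term for the replicate set the adjusted p of limma was 0.027.

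LAMB2 encodes the beta-2 chain, which takes the place of beta-1 in the laminins of glomeruli, neuromuscular junctions and vessels. It was 4.14, 4.15, 3.83 and 4.03 in the controls and 3.20, 3.31, 3.64 and 3.52 in the knockouts. All knockout values lay below all control values, and the knockout sets lay closer together than for any other laminin chain. LAMB2 fell by 0.62 ± 0.12 (SE; limma adjusted p = 0.0136), the control mean being 4.04 ± 0.15 and the knockout mean 3.42 ± 0.20 (SD, n = 4 each). It fell by 0.90 within replicates 1 and 2 (limma adjusted p = 9.59e-05) and by 0.35 within replicates 3 and 4 (limma adjusted p = 0.0333). Averaging each close knockout pair, so that it counts once, ended the call (limma adjusted p = 0.0774), as did the fit without control library 1 (0.0504) or 2 (0.0514).

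LAMA5, the alpha-5 chain that joins beta-1 or beta-2 and gamma-1, was 2.07, 2.09, 1.72 and 2.11 in the controls and 0.50, 0.94, 1.73 and 1.87 in the knockouts. The 2 upper knockout values fell between control library 3 and the other controls. It fell by 1.36 within replicates 1 and 2 (limma adjusted p = 3.79e-04), the difference was -0.12 within replicates 3 and 4 (limma adjusted p = 0.535), and over all libraries it was -0.74 ± 0.29 (SE; limma adjusted p = 0.124). All 4 laminin chains changed differently in the sets: the change in replicates 3 and 4 was higher by 1.25 ± 0.22 for LAMA5, 0.99 ± 0.12 for LAMB1, 0.75 ± 0.09 for LAMC1 and 0.55 ± 0.12 for LAMB2 (SE; limma interaction test, adjusted p = 0.0022, 4.51e-04, 4.16e-04 and 0.00649).

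HSPG2 encodes perlecan, a very large proteoglycan whose heparan sulfate chains hold growth factors such as FGF and VEGF. It was 1.71, 1.74, 2.10 and 2.02 in the controls and -0.47, -0.03, 2.13 and 2.17 in the knockouts. Knockout libraries 1 and 2 were far below, and knockout libraries 3 and 4 slightly above, every control. HSPG2 fell by 1.97 within replicates 1 and 2 (limma adjusted p = 1.20e-04), to 0.255 of the control level on the linear scale, and this was the 3rd largest fall among the 9016 tested genes there. COL4A2 ranked 13th and COL4A1 15th by the same measure, LAMA5 31st and LAMB1 61st. In knockout libraries 1 and 2 HSPG2 and LAMA5 were under 1, the level of the filter, which uses the mean of all 8 libraries. The size and rank of their falls thus rest on low values. With a pseudocount of 1 the difference over all libraries was -0.57 for HSPG2 and -0.54 for LAMA5, against -0.94 and -0.74 without it. Within replicates 3 and 4 the difference of HSPG2 was 0.09 (limma adjusted p = 0.423), and over all libraries it was -0.94 ± 0.59 (SE; limma adjusted p = 0.326). The sets differed by 2.07 ± 0.17 (SE; limma interaction test, adjusted p = 8.08e-05).

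AGRN encodes agrin, best known for gathering acetylcholine receptors at the neuromuscular junction. It was 3.94, 3.96, 3.73 and 3.93 in the controls and 3.46, 3.57, 4.14 and 4.09 in the knockouts, again with knockout 1 and 2 below and knockout 3 and 4 above all controls. It fell by 0.43 within replicates 1 and 2 (limma adjusted p = 0.00108), and the difference of 0.28 within replicates 3 and 4 missed the threshold (limma adjusted p = 0.0572), which it passed with the replicate block (limma adjusted p = 0.029). These opposite differences left -0.07 ± 0.16 (SE) over all libraries (limma adjusted p = 0.799).

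NID1 encodes nidogen-1, the linker between the laminin and collagen IV networks. It was 3.11, 3.13, 3.34 and 3.17 in the controls and 2.91, 2.91, 3.60 and 3.66 in the knockouts, again lowest in knockout 1 and 2 and highest in knockout 3 and 4. It fell by 0.21 within replicates 1 and 2 (limma adjusted p = 0.00863) and rose by 0.38 within replicates 3 and 4 (limma adjusted p = 0.0177). Over all libraries the difference was 0.08 ± 0.19 (SE; limma adjusted p = 0.808). The sets differed by 0.71 ± 0.11 for AGRN and by 0.59 ± 0.10 for NID1 (SE; limma interaction test, adjusted p = 0.00144 and 0.0021).

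NTN4, netrin-4, was the one gene of the 10 that rose over all libraries. Its value was 0.53, 0.94, 1.44 and 1.23 in control libraries 1 to 4 and 1.51, 1.68, 2.43 and 2.47 in knockout libraries 1 to 4. The groups did not overlap, and in both groups libraries 3 and 4 were above libraries 1 and 2, by 0.60 in the controls and by 0.86 in the knockouts. The rise was 0.99 ± 0.27 (SE; limma adjusted p = 0.0455), or 1.99-fold on the linear scale, with a control mean of 1.04 ± 0.39 and a knockout mean of 2.03 ± 0.50 (SD, n = 4 each). It was 0.86 within replicates 1 and 2 (limma adjusted p = 0.00211) and 1.12 within replicates 3 and 4 (limma adjusted p = 3.51e-04), the 48th largest of 9016 there. The difference between the sets, 0.26 ± 0.18 (SE), did not pass (limma interaction test, adjusted p = 0.285). Averaging each close knockout pair ended the call (limma adjusted p = 0.146). It was also lost without any one of control libraries 1, 2 and 4 or knockout libraries 2, 3 and 4 (limma adjusted p from 0.0502 to 0.122). With no filter on the mean it was lost as well (limma adjusted p = 0.0711). NTN4 was under 1, the level of the filter, in control libraries 1 and 2, so the size of its rise rests partly on low values. With a pseudocount of 1 the rise over all libraries was 0.74 (limma adjusted p = 0.0462).

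**Figure D2:**
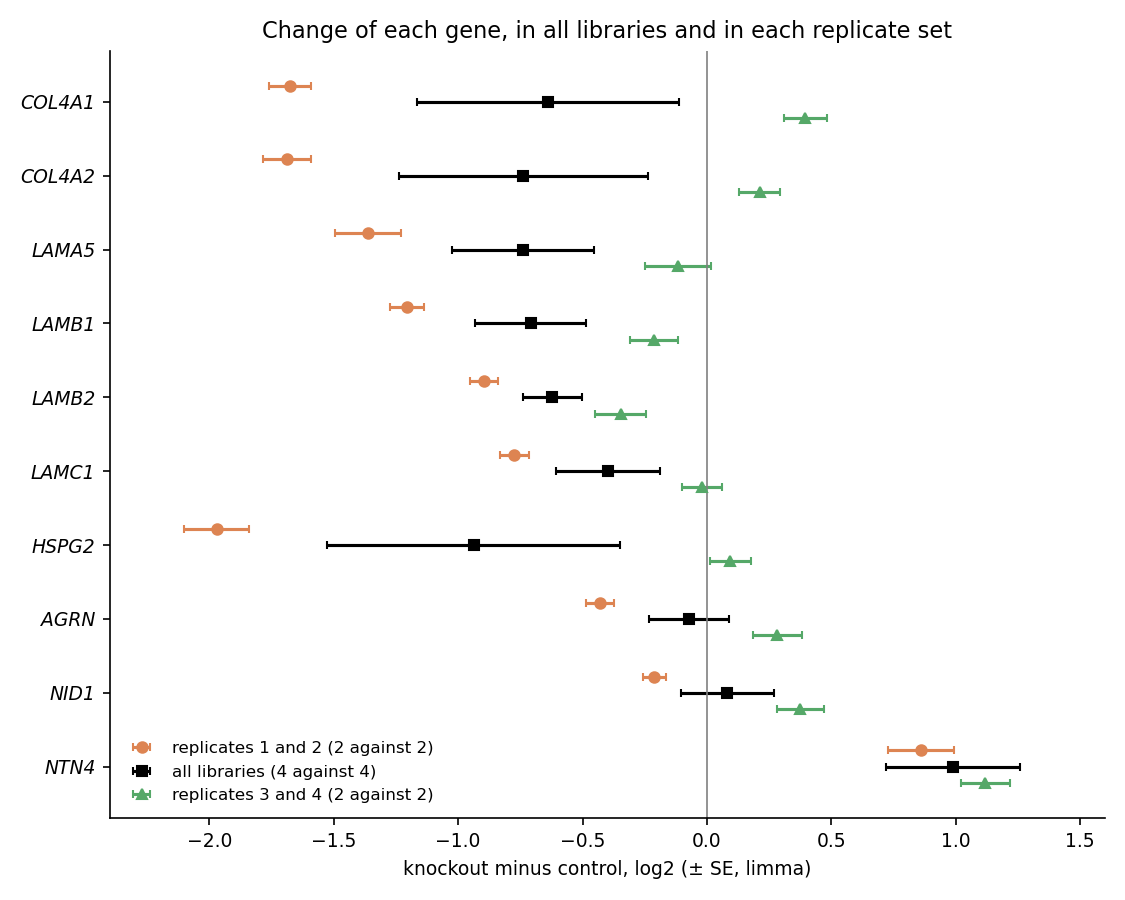
Knockout minus control on the log2 scale (horizontal axis, ± SE from limma) for each gene over all libraries (black squares), within replicates 1 and 2 (orange circles) and within replicates 3 and 4 (green triangles). The circles run from -1.97 to -0.21 for 9 genes, the triangles from -0.35 to 0.40 for the same genes, and all 3 symbols lie near 1 for NTN4.

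Counted together, 2 of the 10 genes passed over all 8 libraries, where 13.1% of tested genes did (6.10% lower, 7.02% higher), and the same 2 passed with the replicate block, where 10.2% did. The libraries of the groups were fully separated for 3 genes, LAMB1 and LAMB2 being lower and NTN4 higher, and 22.9% of tested genes were separated in this way (10.4% lower, 12.5% higher). Neither count is far above its background. With a term for the replicate set 3 genes passed (LAMB1 and LAMB2 lower, NTN4 higher), beside 25.2% of tested genes (11.4% lower, 13.8% higher). With averaged knockout pairs none passed by limma, beside 1.20% of tested genes.

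Within replicates 1 and 2 all 10 passed, 9 of them lower and 1 higher. Of all tested genes 59.7% passed there, 26.6% lower and 33.0% higher. Within replicates 3 and 4, 4 genes passed: COL4A1, NID1 and NTN4 were higher (background 15.7%) and LAMB2 was lower (background 17.4%), where 33.1% passed in either direction. The tests within a set rest on 2 libraries per group, and without knockout library 3 or 4 only 1 gene passed in the second set. The median change of the 10 genes was -1.05 in the first set and 0.15 in the second, beside medians of 0.03 and 0.00 over all tested genes.

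The change differed between the sets for 9 of the 10 genes, each time being higher in replicates 3 and 4, where 41.3% of tested genes differed, 18.4% in that direction and 22.9% in the other. The replicate block gave the same 9 genes, with 39.4% of tested genes. The median of this difference was 0.87 for the 10 genes and -0.03 for all tested genes. The 10 values come from the same libraries and are not independent, and the sets were known from earlier results to stand apart. In both sets 4 genes passed (21.1% of tested genes), of which COL4A1 and NID1 did so in opposite directions (7.13%), lower in 1 and 2 and higher in 3 and 4 (3.04%).

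**Figure D3:**
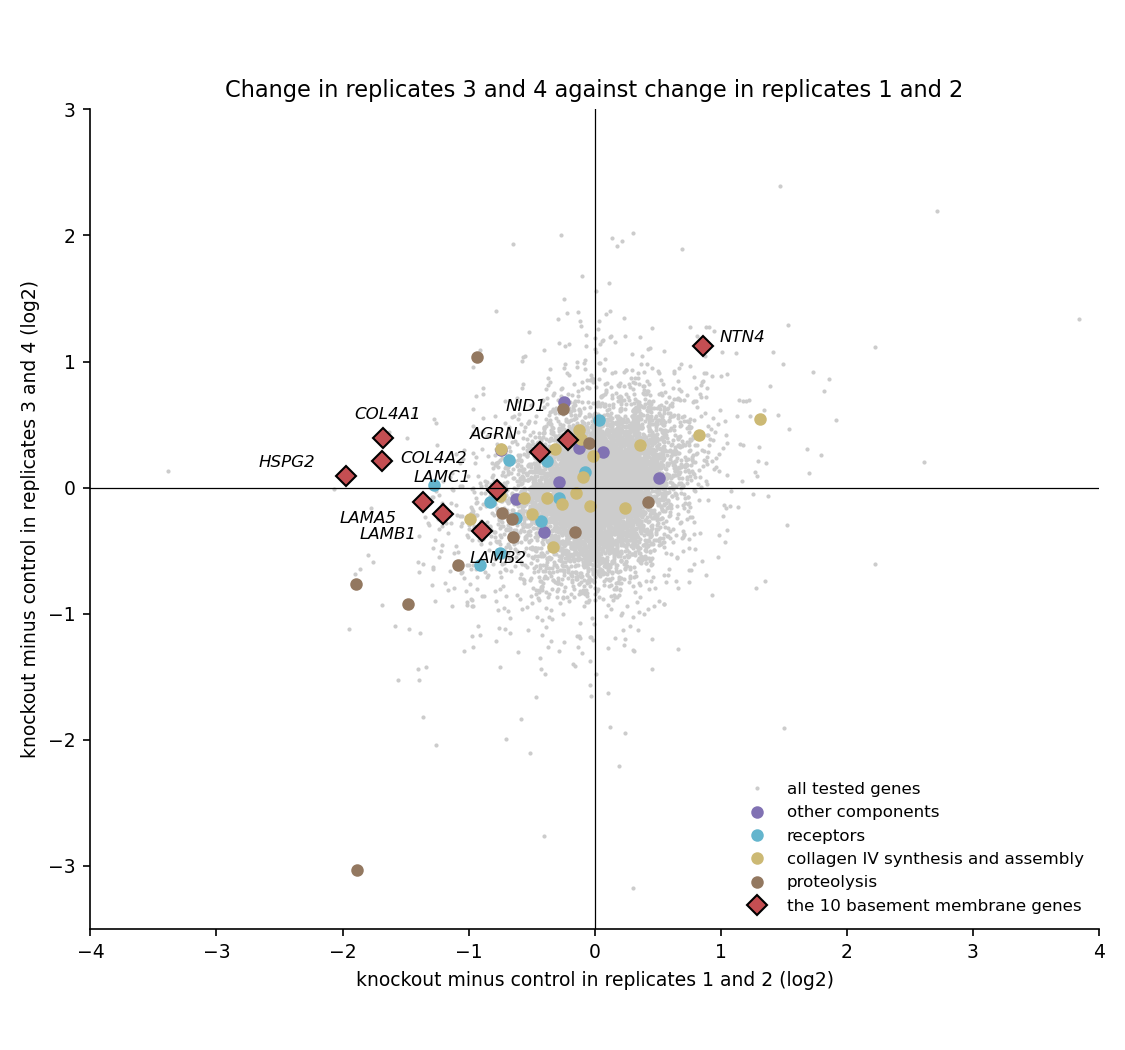
Each point is 1 tested gene, with its knockout minus control difference (log2) in replicates 1 and 2 on the horizontal axis and in replicates 3 and 4 on the vertical axis, for all 9016 tested genes (grey), genes of 4 related lists (coloured) and the 10 basement membrane genes (red diamonds). HSPG2, COL4A1 and COL4A2 lie at the far left, between -1.97 and -1.68, with small positive values on the vertical axis, and NTN4 lies alone among the 10 in the upper right.

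Across the 8 libraries, 7 of the genes (COL4A1, COL4A2, LAMA5, LAMB1, LAMC1, HSPG2 and AGRN) had Pearson correlations of 0.77 to 1.00 in their 21 pairs. These 7 were grouped after their correlations were seen. Those of LAMB2 with them ran from 0.55 (AGRN) to 0.92 (LAMB1) and those of NID1 from 0.48 (LAMB1) to 0.83 (COL4A1), while LAMB2 had 0.11 with NID1 and -0.63 with NTN4. The points share the split of the knockout libraries, so these values describe that split. The tested genes most like COL4A1 over the 8 libraries were SVIL, FAM43A and COL4A2 (Pearson r = 0.999, 0.998 and 0.996), and 246 genes exceeded 0.95. Those most like LAMC1 were SYNJ2, KLHL4 and TBX15 (r = 0.998, 0.997 and 0.996). HSPG2 was the 7th most like LAMC1 (r = 0.994). Those most like NTN4 were GPS1, STARD13 and GINS2 (r = 0.996, 0.991 and 0.990), while its closest partner among the 10 genes was NID1 (r = 0.66).

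Differences between partner genes were then taken within each library, which removes what the genes share. These 8 pairs were chosen after the values were seen. Their size within a library is not a ratio of transcript levels, since scaling by length is not stated, and only its change between libraries is read. COL4A2 minus COL4A1 was 1.70, 1.76, 1.76 and 1.81 in the controls and 1.69, 1.74, 1.62 and 1.58 in the knockouts, a range of 1.58 to 1.81 while each gene moved by over 2 log2 units between libraries. The difference between the groups was -0.10 (exact two-sided permutation test, p = 0.0571, adjusted over 8 pairs 0.114).

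LAMB1 minus LAMC1 was 1.20, 1.24, 0.94 and 1.11 in the controls and 0.76, 0.82, 0.78 and 0.89 in the knockouts. The groups did not overlap, and both knockout sets gave about the same value. The difference was -0.31 (p = 0.0286 by an exact two-sided permutation test, the lowest that 4 against 4 allows, adjusted 0.114).

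NID1 minus LAMC1 was -2.49, -2.43, -2.31 and -2.50 in the controls and -1.84, -1.96, -2.04 and -1.98 in the knockouts, higher in every knockout library than in every control. The difference was 0.48 (exact two-sided permutation test, p = 0.0286, adjusted 0.114). HSPG2 minus COL4A1 had a control mean of -2.63 ± 0.14 and a knockout mean of -2.93 ± 0.16 (SD, n = 4 each), and its exact two-sided permutation p was 0.0571 (adjusted 0.114). LAMB2 minus LAMB1 was -2.70 ± 0.06 in the controls, -2.31 and -2.37 in knockout libraries 1 and 2, and -2.78 and -3.01 in knockout libraries 3 and 4. None of the 8 pairs passed after adjustment. With a lowest possible p of 0.0286 in the exact permutation test, no pair could have passed by itself. Not passing is therefore no result about the pairs. The close knockout libraries are not independent in these tests.

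**Figure D4:**
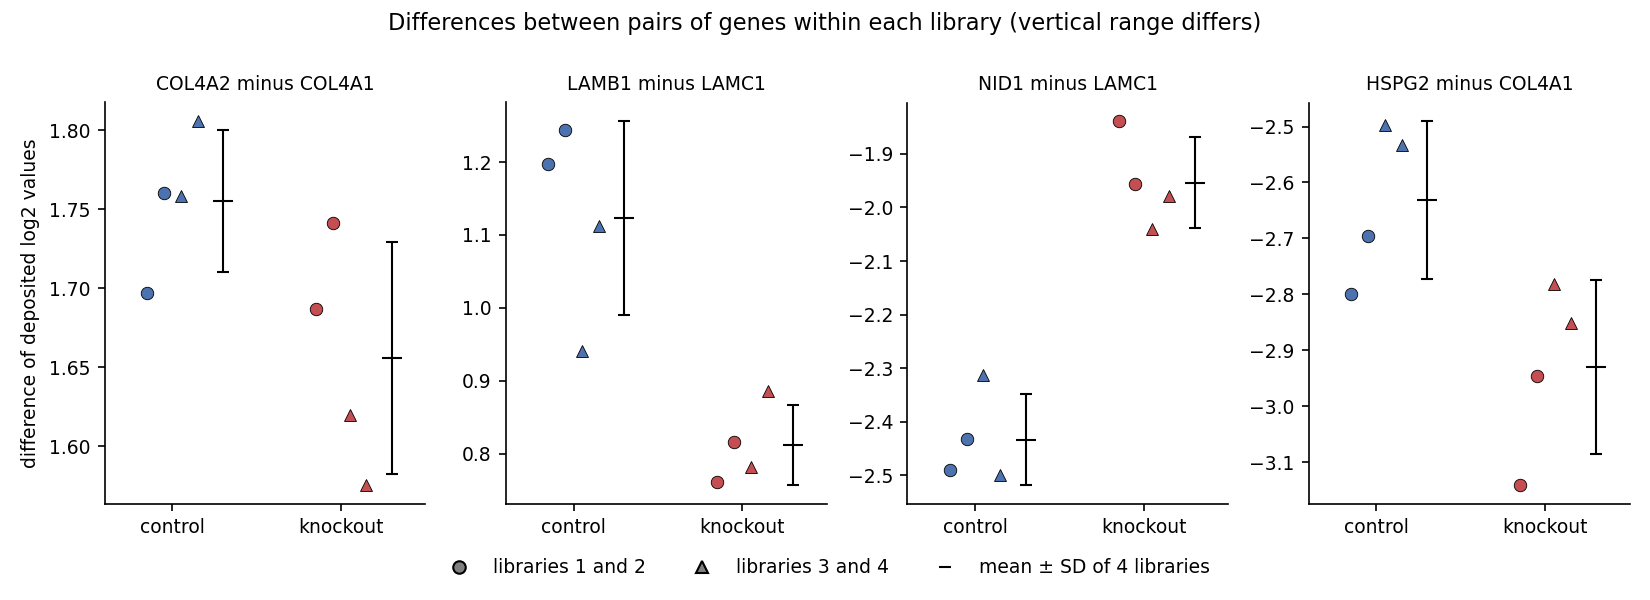
Difference of deposited log2 values between 2 genes in each library (vertical axis) for 4 pairs, control libraries in blue and knockout libraries in red, circles for libraries 1 and 2 and triangles for 3 and 4, with the mean and SD of each group. Circles and triangles of the knockout lie close together for LAMB1 minus LAMC1 (0.76 to 0.89) and NID1 minus LAMC1 (-2.04 to -1.84), apart from all controls.

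The other genes of the pathway were taken from 4 lists with 97 symbols, of which 50 were tested. Over all libraries 14 passed (11 lower, 3 higher), that is 28.0% against 13.1% of all tested genes, with a median change of -0.21 beside 0.01. Without control library 1 or 4 it was 8, and without control library 2 it was 9. The lists were chosen with earlier results of these data known, so the 28.0% is a description and not a test of the pathway. Of 29 other basement membrane components, 8 were tested and none passed (limma). Within replicates 1 and 2, 5 of these 8 fell and 1 rose, and within replicates 3 and 4, 1 fell and 3 rose, beside 59.7% and 33.1% of all tested genes in either direction. Over all libraries COL4A5, COL18A1 and EGFLAM had an unadjusted p under 0.05, and COL18A1, the source of endostatin, was lower by 0.38 and passed with the replicate block (limma adjusted p = 0.0337). COL4A5, another collagen IV chain, had a control mean of 1.28 ± 0.02 and a knockout mean of 0.92 ± 0.32 (SD, n = 4 each; limma adjusted p = 0.139), with differences of -0.62 and -0.09 in the sets. These genes are named after their values were seen.

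Of 21 cell-surface receptors 11 were tested and 4 fell, where 6.10% of all tested genes were lower. SDC4, the heparan sulfate proteoglycan syndecan-4, fell by 0.76 ± 0.14 (SE; limma adjusted p = 0.0110), with group means of 5.57 ± 0.29 and 4.81 ± 0.09 (SD, n = 4 each). ITGA1, a subunit of a collagen IV-binding integrin, fell by 0.63 (limma adjusted p = 0.0102). ITGA3, a subunit of a laminin receptor that binds alpha-5 laminins, fell by 0.43 (limma adjusted p = 0.0316, and 0.0584 with the replicate block). ITGB1, their shared beta-1 subunit, fell by 0.34 (limma adjusted p = 0.0171) and is named after its value was seen. DAG1, which was outside the naming rule, encodes dystroglycan, a receptor of agrin, perlecan and laminins, and had means of 3.12 ± 0.13 (control) and 3.15 ± 0.23 (knockout; SD, n = 4 each; limma adjusted p = 0.915).

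Of 25 symbols listed for the synthesis and assembly of collagen IV, 24 were in the deposited table. Of these 19 were tested, and 3 rose and 1 fell. Among all tested genes 7.02% were higher and 6.10% lower. P3H2, a prolyl 3-hydroxylase that acts on collagen IV, rose by 0.93 ± 0.16 (SE; limma adjusted p = 0.00912), with group means of 2.04 ± 0.31 and 2.97 ± 0.16 (SD, n = 4 each). SPARC, a collagen-binding matricellular protein, rose by 0.62 (limma adjusted p = 0.0294). SERPINH1, the collagen chaperone HSP47, fell by 0.40 ± 0.06 (SE; limma adjusted p = 0.00696), with differences of -0.33 and -0.47 in the sets. P3H3, named after its value was seen, rose by 0.35 (limma adjusted p = 0.0453, and 0.0502 with the replicate block). PXDN, the peroxidase that crosslinks collagen IV, named after its value was seen, differed by -0.75 in replicates 1 and 2 and 0.30 in replicates 3 and 4 (limma interaction test, adjusted p = 1.67e-04).

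Of 22 genes of proteolysis 12 were tested and 6 fell, where 6.10% of all tested genes were lower. MMP9, MMP10 and MMP14 fell most. MMP9, a gelatinase that cleaves collagen IV, fell by 2.46 ± 0.38 (SE; limma adjusted p = 0.00696). MMP10 fell by 1.33 (limma adjusted p = 0.00979) and MMP14, a membrane-bound activator of MMP2, fell by 1.20 (limma adjusted p = 0.0180). The values of MMP10 were low, with means of 1.79 ± 0.37 (control) and 0.46 ± 0.38 (knockout; SD, n = 4 each). The others that fell were CTSB (0.52), PLAUR (0.45) and TIMP1 (0.85), named after their values were seen. They encode a cathepsin, the urokinase receptor and an inhibitor of MMP9 and other secreted metalloproteinases. MMP2, the other gelatinase, also named after its value was seen, was lower by 0.94 in replicates 1 and 2 and higher by 1.04 in replicates 3 and 4 (limma interaction test, adjusted p = 1.22e-05). With each close knockout pair counted as 1 library, MMP9 alone of the 50 tested list genes passed (limma adjusted p = 0.0387).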

How the data were processed

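The authors deposited 1 table of log2 values per gene symbol and library. Per the submitters' processing notes, bcl2fastq and Partek 7.0 were used with the build GRCh38; the aligner, counting and the unit before the logarithm are not given in the sources used here, and base 2 was inferred from the range. All libraries have the same mean (1.07) and median (1.77), so the deposited values had been quantile normalized, which hides changes of total RNA. Scaling by length is not stated, so differences between genes were used only to compare libraries. Depth is unknown, so no counting error can be given. Libraries were mapped by title and description.

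The 9016 genes with 8 values and a mean of at least 1 entered linear models (limma 3.58.1, R 4.3.3), first tested on simulated data, with Benjamini-Hochberg adjustment over all of them and a threshold of 0.05. Replicate sets were compared by an interaction term. Single differences between genes had exact permutation tests. The 10 genes and the lists were chosen with earlier results of these data known. Genes outside them are named where they passed, did not overlap between groups and were among the 3 largest rises or falls of a list, or were among the 3 most correlated with COL4A1, LAMC1 or NTN4. Exceptions are said to be so in the text. Same-numbered control and knockout libraries deviated together over genes (r = 0.24, 0.27, 0.29 and 0.20 for control libraries 1 to 4). The highest r with a knockout library of another number was 0.31, 0.25, 0.25 and 0.11, so control library 1 correlated more with another number. The labels do not explain the numbers, and the main fits did not treat them as pairs. A fit blocked on the library number (the replicate block) was an alternative. Other alternatives were other scalings, filters, a pseudocount of 1, a variance trend, averaged knockout pairs, a set term and leaving out each library. P-values measure the spread between these libraries. Within a set that is the spread inside the pair of each group. The tests over all libraries count close knockout libraries as independent, except with averaged knockout pairs.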

Additional observations from a re-analysis of the deposited data

Results flagged for a closer look

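Control library 3 lay apart from the other 3 controls for LAMA5, LAMB1 and AGRN: the gap below the next value took 0.89, 0.906 and 0.897 of the control range. It was the lowest control in each case. In all, 20 groups were examined, and how often such a gap arises by chance was not tested.

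The knockout minus control change differed between replicates 3-4 and replicates 1-2 for 9 genes (limma interaction test), where 41.3% of all tested genes differed. On the log2 scale the change in replicates 3-4 was higher by 2.07 for COL4A1, 1.90 for COL4A2, 1.25 for LAMA5, 0.99 for LAMB1, 0.55 for LAMB2, 0.75 for LAMC1, 2.07 for HSPG2, 0.71 for AGRN and 0.59 for NID1. The sets carry no label other than the replicate numbers, and what separates them was not tested.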

How the results depend on the processing

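Of the 10 genes, 2 passed over all libraries. The number was 1 with no filter on the mean, 1 with a mean of at least 3, where NTN4 was not tested, 0 with averaged knockout pairs and 0 to 2 when 1 library was left out (0 without control 1 or 2, 1 without control 4, knockout 2 or knockout 3). With the replicate block it was 2, the same genes. Of all tested genes 13.1% passed in the main fit, 10.2% with the block, 1.20% with averaged knockout pairs and 25.2% with a set term. No such share is given for the other alternatives over all libraries. The counts of the 10 genes and of the list genes thus have no background there. In replicates 3-4 the count of 4 became 1 with no filter and 1 to 4 when 1 library was left out (1 without knockout 3 or 4). The counts for replicates 1-2 and for the difference between sets stayed within 1.5 times under all alternatives run. The 14 list genes became 9 with a mean of at least 3, 1 with averaged pairs, 22 with a set term and 8 to 16 when 1 library was left out (8 without control 1 or 4, 9 without control 2). The block changed no call of the 10 genes over all libraries. In replicates 3-4 the block added AGRN, as did a pseudocount of 1, a variance trend and a mean of at least 3. The variance trend also added COL4A2 there. With no filter on the mean, NTN4 alone passed in replicates 3-4, and COL4A1, LAMB2 and NID1 did not. The 2 differences nearest to 0 changed sign when 1 library was left out: AGRN ranged from -0.18 to 0.044, being 0.044 and 0.01 without knockout library 1 or 2, and NID1 ranged from -0.0486 to 0.20, being -0.03 and -0.0486 without knockout library 3 or 4. The other 8 genes kept their direction in every alternative. Leaving out 1 knockout library moved the differences over all libraries by over 1.5 times for COL4A1 (-0.24, -0.32, -0.98 and -1.02 without knockout 1, 2, 3 and 4), COL4A2 (-0.35 and -0.45 without knockout 1 and 2), HSPG2 (-0.47 and -0.61 without the same), LAMC1 (-0.24 without knockout 1) and LAMA5 (-0.49 without knockout 1), none of which passed in the fit with all 8 libraries. With a pseudocount of 1 the difference of HSPG2 was -0.57 instead of -0.94. Of 167 alternative values for single genes 150 kept direction and side of the threshold. Where a call changed the cause was not tested. Leaving out a library within a set leaves 1 sample in a group, which is assumed to vary like the other.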
